A study of Mus musculus with 16 samples.

Results

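The 37 genes described here mark the cells of brain blood vessels, their coverings and the blood inside them, and were taken by symbol from 45706 gene rows of hypothalamic RNA. They fall into 5 roles: 13 genes of endothelial identity and angiogenic receptors, 6 blood-brain barrier transporters, 7 genes of mural cells (pericytes and smooth muscle), 6 fibroblast genes and 5 red blood cell genes. All 37 symbols were found in the table, and each stood on 1 row.

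RNA came from bacTRAP, a method in which a Cre-dependent ribosomal protein L10a fused to GFP is expressed from the Rosa locus after removal of a STOP cassette, and anti-GFP antibodies pull down the tagged ribosomes with their mRNA. Cre was driven by Pnoc, which encodes prepronociceptin, a neuropeptide precursor, so the tag was present in control and deletion-labelled mice alike. Hypothalami of 4 animals were pooled per sample, and each of 8 pools gave an input library (a lysate aliquot) and a pulldown library (ribosome-bound RNA). Pools 1 to 4 are labelled control (Lepr-flox) and pools 5 to 8 are labelled Pnoc Lepr deletion, which gives 4 groups of 4 libraries. All mice, of C57Bl/6N background, ate chow and were sampled in the random-fed state at 12 weeks of age.

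Brain endothelial cells line the vessels, are joined by tight junctions and carry transporters that move glucose, lipids and hormones into the brain while pumping drugs out. Pericytes and smooth muscle cells wrap the endothelium, and fibroblasts sit in the outer sheath of larger vessels and in the meninges, where they lay down collagen. Red blood cells of mammals lack a nucleus, and their young forms in the circulation still hold globin mRNA. None of these cells is a neuron, the cell type that the pulldown was designed to reach.

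Each library held between 64435952 and 78623636 estimated counts, at which 3 counts correspond to 0.0469 to 0.0562 CPM (counts scaled to a fixed library size) in input and 0.0321 to 0.0395 CPM in pulldown. CPM values here are scaled by TMM, which sets a typical gene equal between libraries. Pnoc was higher in pulldown than in input by 1.68 on the log2 scale in both genotypes, and all 8 neuron markers were higher in pulldown. All 6 astrocyte, all 5 oligodendrocyte and all 5 microglia markers were lower in pulldown in both genotypes. Lepr, the leptin receptor gene that the deletion targets, was not lower in the deletion-labelled libraries: it lay between 1.42 and 1.86 CPM in control pulldown and between 2.42 and 2.82 CPM in deletion-labelled pulldown (log2 difference 0.71, SE 0.12, edgeR adjusted p = 0.0386), and between 3.49 and 5.11 against 4.78 and 8.14 CPM in input. A total over the whole gene does not tell whether a floxed stretch within it is missing, so the genotype groups are named by their labels throughout.

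The globin genes had the lowest pulldown-to-input ratios of the 34 genes fitted in control pools, and their start regions are shown to compare the copies. The 250 bases before the transcription start are shown from RefSeq (GRCm38.p6), 5′ to 3′ on the gene's strand, with matches to 3 short motifs in capitals. The first is GATAAG, the core that erythroid transcription factors of the same name bind. The second is CCAAT, a common promoter box, which reads ATTGG where it lies on the opposite strand. The third is ATATAA, a form of the box that positions the start of transcription. Hba-a1 lies at chr11:32283422-32283671 on the plus strand, Hbb-bs at chr7:103827929-103828178 on the minus strand and Hbb-bt at chr7:103813924-103814173 on the minus strand.
Hba-a1: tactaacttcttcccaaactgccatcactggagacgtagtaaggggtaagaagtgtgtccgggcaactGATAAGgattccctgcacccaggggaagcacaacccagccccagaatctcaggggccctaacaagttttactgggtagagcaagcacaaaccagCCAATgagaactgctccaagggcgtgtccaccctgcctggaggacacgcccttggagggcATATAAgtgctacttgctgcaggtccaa
Hbb-bs: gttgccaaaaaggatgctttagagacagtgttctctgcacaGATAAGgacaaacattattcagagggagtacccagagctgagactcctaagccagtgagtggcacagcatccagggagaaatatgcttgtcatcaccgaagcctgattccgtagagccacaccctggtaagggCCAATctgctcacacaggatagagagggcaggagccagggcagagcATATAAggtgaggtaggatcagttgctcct
Hbb-bt: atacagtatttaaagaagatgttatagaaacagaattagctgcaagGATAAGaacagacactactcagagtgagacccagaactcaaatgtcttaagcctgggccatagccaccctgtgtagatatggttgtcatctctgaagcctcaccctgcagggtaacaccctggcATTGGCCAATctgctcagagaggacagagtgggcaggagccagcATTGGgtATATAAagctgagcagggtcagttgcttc
The Hba-a2 window, at chr11:32296242-32296491, shares 247 bases with that of Hba-a1 without a difference and is not shown. Hbb-bs and Hbb-bt are identical at 73.3% of 243 aligned bases, with 14 bases as the longest shared run. Searched on both strands, GATAAG stood in 6.55% of 32851 such windows of all genes. The CCAAT motif stood in 33.8% of these windows, and ATATAA stood in 9.10% of them. Each of the 3 motifs stood in 4 of the 5 red blood cell genes' windows. These windows lie before the transcripts, whose own sequences were not compared. Reads may be split between Hba-a1 and Hba-a2 and between Hbb-bs and Hbb-bt, which was not tested. Their separate values are therefore uncertain, and the sums are given too.

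In control pools, 29 of the 34 genes that could be tested were lower in pulldown than in input, 1 was higher and 4 did not pass. Over all 17570 genes tested, 34.6% were lower and 30.1% were higher. The median log2 ratio of the 34 genes was −2.95, against −0.02 for all genes tested. In deletion-labelled pools 30 of 35 tested genes were lower, 1 was higher and 4 did not pass, beside 32.8% lower and 28.8% higher of 17423 genes tested. The median there was −3.10, against −0.01 for all genes. The calls are those of edgeR (quasi-likelihood test, p adjusted by Benjamini-Hochberg over all genes tested, threshold 0.05). Among the genes counted as lower, 4 in control pools (Ly6c1, Ly6a, Acta2 and Col3a1) and 2 in deletion-labelled pools (Emcn and Ly6a) had under 10 counts in every pulldown library, so they entered the test only through their input level. Others counted as lower had under 10 counts in at least 1 pulldown library, so they too needed their input level to be tested. In control pools these were Tek, Emcn, Slco1a4, Abcb1a, Tagln, Col1a1 and Alas2. In deletion-labelled pools they were Tek, Ly6c1, Slco1a4, Slco1c1, Acta2, Tagln, Col3a1, Lum and Alas2. For all of these genes a higher input was part of the condition for being tested. The counts and medians above include them.

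Summed over a role, the pulldown held 3.35% to 4.31% of the input CPM of the same pool for red blood cell genes, 9.00% to 16.3% for mural genes and 9.57% to 28.2% for fibroblast genes. It held 29.8% to 46.3% for barrier transporters and 62.1% to 98.8% for endothelial genes (range over 8 pools). The red blood cell range did not overlap with that of any other role, and the mural and fibroblast ranges overlapped. Itm2a, Egfl7, Ramp2 and Esam, which were not called lower in control pools, made up 92.6% of the summed endothelial CPM in control pulldown, so the endothelial range mostly describes these 4 of 13 genes. The barrier, fibroblast and mural ranges likewise rested on few genes. In control pulldown, Slc2a1 and Abcg2 had means of 9.73 and 4.09 CPM beside a mean barrier sum of 14.9 CPM. Igf2 had 14.2 CPM there beside a mean fibroblast sum of 15.7 CPM. In control input, Rgs5 had 29.8 CPM beside a mean mural sum of 42.2 CPM.

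**Figure D1:**
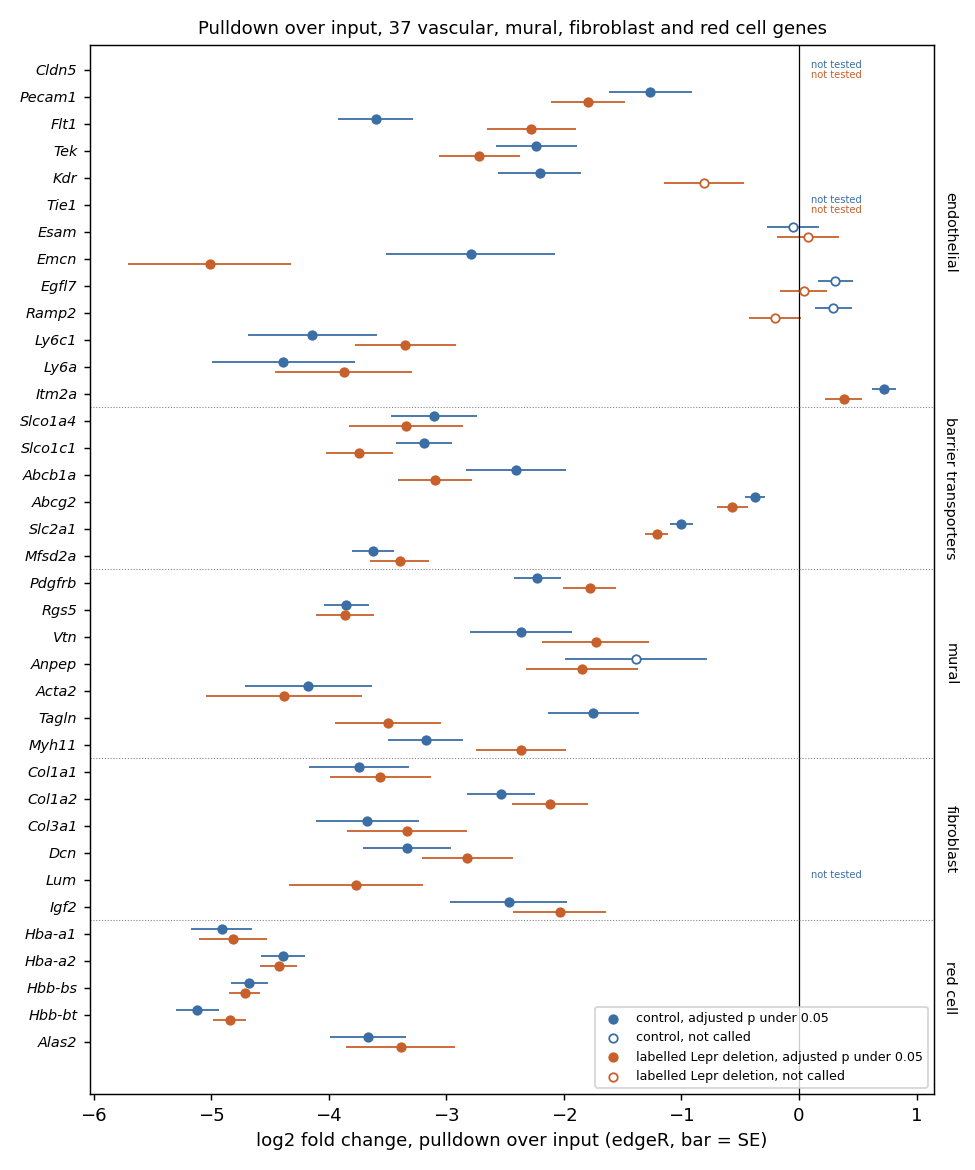
Log2 ratio of pulldown over input (horizontal axis, edgeR fit, with bars of 1 standard error) for each tested gene, grouped by role, in control and deletion-labelled pools. The red blood cell genes lie at −3.39 and below, and Itm2a is the gene called higher in both genotypes.

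Of the 13 endothelial genes, 11 were tested, and 7 were lower, 1 was higher and 3 did not pass in control pools (median −2.21). In deletion-labelled pools 6 were lower, 1 was higher and 4 did not pass (median −1.79). Cldn5, which encodes the claudin of endothelial tight junctions, stood at 0.158, 0.169, 0.226 and 0.137 CPM in the inputs of pools 1 to 4 and at 0 in all 4 of their pulldowns. It was too low for the fit, and its control ratio is at least 5.15-fold lower in pulldown, taking 3 counts per pulldown library as the floor. In pools 5 to 8 it stood at 0.11, 0.172, 0.389 and 0.101 CPM in input and at 0, 0.0324, 0.0232 and 0.0264 CPM in pulldown. The groups did not overlap in either genotype, and with 4 libraries against 4 the exact two-sided permutation test gave its smallest possible p of 0.0286 in each (adjusted p = 0.0857 over 15 such tests).

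Tie1, an endothelial receptor tyrosine kinase, was the lowest of the 37 genes. Its inputs held 0.228, 0.0187, 0 and 0 CPM in the control pools and 0.0915, 0.0313, 0.152 and 0.0335 CPM in the deletion-labelled pools, and its pulldowns held 0 CPM except for 0.0116 CPM in pool 7. Most of these values lie at or under 3 counts, so a change in Tie1 between control libraries was not detectable at this depth (exact permutation p = 0.429), and in deletion-labelled libraries the p was 0.0286 (adjusted p = 0.0857). The defining endothelial genes Cldn5 and Tie1 were thus near the floor even in input, while other endothelial genes were well above it.

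Flt1 and Kdr are receptors for vascular endothelial growth factors, and Kdr is the main signalling one. Each overlaps a gene that is not protein-coding (Gm35383 and Gm32727), which leaves its counts uncertain. Flt1 stood at 4.24, 3.61, 2.38 and 2.9 CPM in control input and at 0.390, 0.192, 0.380 and 0.132 CPM in control pulldown (log2 ratio −3.60, SE 0.32, edgeR adjusted p = 1.48e-06). Its deletion-labelled levels were 3.28, 3.00, 6.35 and 3.25 CPM in input and at 0.355, 0.898, 1.52 and 0.501 CPM in pulldown (log2 ratio −2.28, SE 0.38, edgeR adjusted p = 0.000150). Every pulldown library was under every input library in each genotype.

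Kdr stood at 2.33, 2.28, 1.65 and 1.54 CPM in control input and at 0.815, 0.288, 0.380 and 0.231 CPM in control pulldown. The groups did not overlap, and the log2 ratio was −2.21 (SE 0.35, edgeR adjusted p = 0.000174). Pools 5 to 8 held 2.67, 3.83, 4.64 and 1.71 CPM in input and at 1.01, 1.56, 3.22 and 1.60 CPM in pulldown. There the groups overlapped, pool 7 was highest in both kinds of library, and the log2 ratio of −0.81 (SE 0.34) did not pass (edgeR adjusted p = 0.0531). With the pool as a block the ratio was −0.84 and passed (edgeR adjusted p = 0.00516). On CPM, pulldown was lower than input in each of the 4 pools. On TPM the log2 ratios within pools 5 to 8 were −0.46, −0.44, 0.36 and 0.75, and on log2(TPM + 0.1) the fitted ratio was 0.05. Scaling by TPM raised the median ratio of all genes, by amounts given in the last section. In the fit on log2(TPM + 0.1) Kdr therefore stayed under the median gene.

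Itm2a, a membrane protein gene expressed in endothelium and in other cells, was the 1 gene of the 37 that was higher in pulldown. It stood at 4.94, 5.99, 6.27 and 5.78 CPM in control input and at 8.49, 9.41, 9.72 and 10.8 CPM in control pulldown (log2 ratio 0.72, SE 0.10, edgeR adjusted p = 5.27e-05). All 4 control pulldowns were above all 4 inputs. Levels in the deletion-labelled pools were 5.49, 6.38, 9.16 and 5.10 CPM in input and at 9.52, 7.67, 9.05 and 8.03 CPM in pulldown (log2 ratio 0.38, SE 0.16, edgeR adjusted p = 0.0494). The pool 7 input lay among the pulldown values, and leaving out pool 5, 6 or 8 ended the call.

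Egfl7, Ramp2 and Esam did not pass in either genotype on the TMM scale, while other settings called them higher: Egfl7 in 6 of 15 in control and 3 of 15 in deletion-labelled pools, Ramp2 in 4 and 2 of 15, and Esam in 2 and 2 of 14. The TPM scales are among these settings and also raised the median ratio of all genes, as given for Abcg2 below. On them Esam in control pools and Ramp2 in deletion-labelled pools stayed under the median gene. In control and deletion-labelled pools, the highest ratios over the settings were 1.51 and 1.16 for Egfl7, 1.34 and 0.69 for Ramp2, and 0.82 and 0.89 for Esam. Egfl7, which encodes a secreted endothelial protein and hosts a microRNA, stood at 3.45, 3.01, 2.81 and 2.85 CPM in control input and 2.83, 4.39, 4.25 and 3.72 CPM in control pulldown, and at 2.45, 2.77, 2.79 and 2.88 against 3.78, 2.96, 2.83 and 1.69 CPM in deletion-labelled pools. Ramp2, which encodes the adrenomedullin receptor's accessory protein, stood at 1.16, 1.65, 1.45 and 1.44 against 1.93, 1.66, 1.87 and 1.63 CPM in control pools and at 1.74, 1.2, 1.77 and 2.06 against 1.87, 1.42, 1.62 and 1.02 CPM in deletion-labelled pools. Esam, which encodes an endothelial adhesion molecule, stood at 0.789, 0.637, 1.00 and 0.978 against 0.872, 0.940, 0.886 and 0.637 CPM in control pools and at 0.641, 0.547, 1.19 and 0.755 against 0.780, 0.725, 0.917 and 0.896 CPM in deletion-labelled pools. For all 3 genes the input and pulldown ranges overlapped in both genotypes, with log2 ratios between −0.20 and 0.31.

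The other endothelial genes were lower in pulldown in both genotypes. Ly6a, whose antigen is used to sort brain endothelium and some fibroblasts, had the lowest control ratio of the role's fitted genes (−4.39, SE 0.61, edgeR adjusted p = 5.67e-05). It stood at 2.03, 0.524, 0.614 and 1.12 CPM in control input and 0.0918, 0.0214, 0.0115 and 0.0769 CPM in control pulldown. In deletion-labelled pools it stood at 0.989, 0.860, 1.59 and 0.403 CPM in input and 0.0828, 0.0649, 0.104 and 0 CPM in pulldown. Pulldown values were at or near the floor of 3 counts in both genotypes. Every pulldown library held under 10 counts of Ly6a, so it entered both tests only through its input level. Pecam1, an endothelial junction molecule, had log2 ratios of −1.27 and −1.79 in control and deletion-labelled pools, and Tek, the angiopoietin receptor, had −2.23 and −2.72. Ly6c1 and Emcn, which encode endothelial surface proteins, lay at 0.219 to 1.28 CPM in input and at 0 to 0.171 CPM in pulldown. Ly6c1 had ratios of −4.14 and −3.35 in control and deletion-labelled pools, and Emcn had −2.79 and −5.01. The deletion-labelled ratio of Emcn was the lowest of the 35 genes fitted there, under those of the globins. It rested on pulldowns of 0 to 2 counts, so Emcn entered that test only through its input level.

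**Figure D2:**
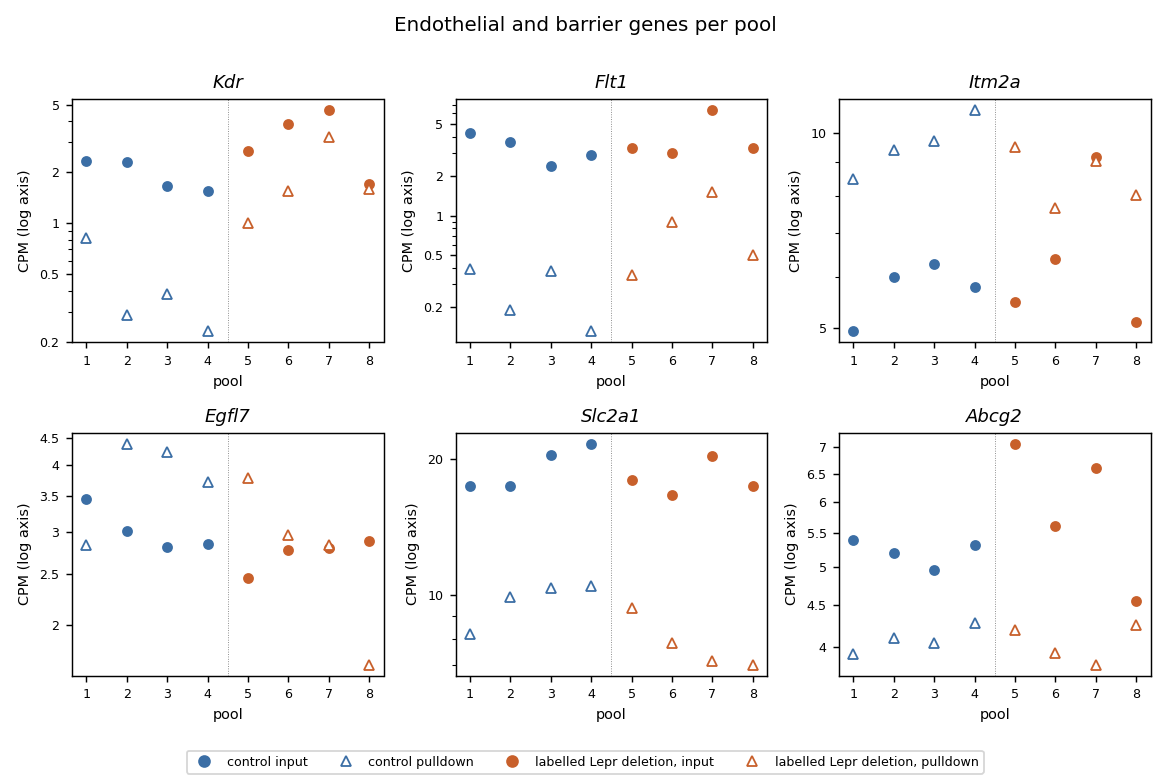
Level in TMM-scaled CPM (log axis) of Kdr, Flt1, Itm2a, Egfl7, Slc2a1 and Abcg2 in each of the 8 pools, with input as filled circles, pulldown as open triangles, control in blue and deletion-labelled in orange. Flt1 pulldowns sit under all inputs, Itm2a pulldowns sit above the inputs except for pool 7 at 9.16 CPM, and Kdr is highest in pool 7.

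All 6 barrier transporters were lower in pulldown in both genotypes, with medians of −2.76 and −3.22. Slc2a1, the glucose transporter GLUT1, which astrocytes also express, stood at 17.5, 17.4, 20.4 and 21.6 CPM in control input and at 8.19, 9.89, 10.4 and 10.5 CPM in control pulldown (log2 ratio −1.0, SE 0.10, edgeR adjusted p = 3.74e-06). Its deletion-labelled levels were 17.9, 16.6, 20.3 and 17.4 CPM in input and at 9.39, 7.85, 7.15 and 7.03 CPM in pulldown (log2 ratio −1.21, SE 0.10, edgeR adjusted p = 2.19e-07). The groups did not overlap in either genotype, and on TPM the control ratio was 0.0016, essentially level. Scaling by TPM raised the median ratio of all genes, as given for Abcg2 below, so Slc2a1 stayed under the median gene there.

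Abcg2, a drug efflux pump, was lower by the smallest amount of the genes called. It stood at 5.40, 5.21, 4.96 and 5.32 CPM in control input and at 3.92, 4.10, 4.05 and 4.27 CPM in control pulldown (log2 ratio −0.37, SE 0.08, edgeR adjusted p = 0.00232). Pools 5 to 8 held 7.07, 5.61, 6.60 and 4.55 CPM in input and at 4.20, 3.94, 3.81 and 4.26 CPM in pulldown (log2 ratio −0.57, SE 0.13, edgeR adjusted p = 0.00223). Every pulldown was under every input on the TMM scale, but the sign turned with other scalings: 0.18 with library totals in control pools, and 0.29 and 0.26 on log2(TPM + 1) in control and deletion-labelled pools. Library totals raised the median ratio of all genes by 0.53 and 0.44 in control and deletion-labelled pools, and log2(TPM + 1) raised it by 0.75 and 0.70, so on each of these scales Abcg2 stayed under the median gene.

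Mfsd2a, the lipid transporter that keeps endothelial transcytosis low, had the lowest control ratio of the transporters. It stood at 6.00, 6.09, 5.11 and 7.58 CPM in control input and 0.608, 0.481, 0.391 and 0.549 CPM in control pulldown (log2 ratio −3.62, SE 0.18, edgeR adjusted p = 8.51e-09). Levels in the deletion-labelled pools were 5.82, 4.52, 6.13 and 4.73 CPM in input and 0.331, 0.844, 0.429 and 0.395 CPM in pulldown (log2 ratio −3.40, SE 0.25, edgeR adjusted p = 7.43e-08). The pulldown values were far under the inputs in every pool. The organic anion transporters Slco1a4 and Slco1c1, the latter a thyroxine carrier, had ratios of −3.11 and −3.19 in control pools and −3.34 and −3.74 in deletion-labelled pools. Abcb1a, the P-glycoprotein gene, had −2.41 and −3.10, and it overlaps the coding gene Rundc3b, so with no strand setting given its counts are uncertain.

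Of the 7 mural genes, 6 were lower in control pools (median −2.37) and all 7 in deletion-labelled pools (median −2.36). Rgs5, a pericyte regulator of G protein signalling, stood at 33.9, 28.5, 27.9 and 29.0 CPM in control input and at 3.25, 1.75, 1.88 and 1.50 CPM in control pulldown (log2 ratio −3.85, SE 0.19, edgeR adjusted p = 1.04e-08). In deletion-labelled pools it stood at 31.5, 28.7, 42.7 and 28.7 CPM in input and at 1.34, 3.39, 2.89 and 1.41 CPM in pulldown (log2 ratio −3.86, SE 0.25, edgeR adjusted p = 1.99e-08). No pulldown came near an input, and the pool 7 input was the highest.

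Vtn, which encodes vitronectin, a matrix protein that pericytes secrete, stood at 8.61, 3.82, 4.36 and 2.32 CPM in control input and at 1.48, 1.1, 0.805 and 0.362 CPM in control pulldown (log2 ratio −2.37, SE 0.43, edgeR adjusted p = 0.000476). Its deletion-labelled levels were 6.57, 10.4, 18.7 and 4.68 CPM in input and at 2.08, 2.65, 6.19 and 1.28 CPM in pulldown (log2 ratio −1.73, SE 0.45, edgeR adjusted p = 0.00467). The pool 7 pulldown was above the pool 8 input, so the deletion-labelled groups overlapped, though each pulldown was under its own input.

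Anpep, an aminopeptidase gene used as a pericyte marker, did not pass in control pools. It stood there at 1.44, 0.749, 0.550 and 0.412 CPM in input and 0.597, 0.331, 0.253 and 0.0330 CPM in pulldown (log2 ratio −1.39, SE 0.60, edgeR adjusted p = 0.0619), and it passed with the pool as a block (−1.56, edgeR adjusted p = 0.00293). Pools 5 to 8 held 1.98, 1.44, 2.64 and 0.721 CPM in input and 0.248, 0.357, 1.04 and 0.237 CPM in pulldown (log2 ratio −1.84, SE 0.48, edgeR adjusted p = 0.00433). Input and pulldown ranges overlapped in each genotype, while pulldown was under input in each pool.

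Acta2, smooth muscle actin, had the lowest control ratio of the mural genes (−4.18, SE 0.54, edgeR adjusted p = 3.27e-05). It had under 10 counts in every control pulldown library, so it entered that test only through its input level. It stood at 2.28, 0.450, 1.23 and 0.927 CPM in control input and 0.0344, 0.0962, 0.0921 and 0.0439 CPM in control pulldown. Levels in the deletion-labelled pools were 0.568, 1.69, 3.96 and 1.41 CPM in input and 0.0473, 0.0649, 0.232 and 0.0132 CPM in pulldown. The inputs differed several-fold between pools, and all pulldowns were lower than all inputs. Pdgfrb, the receptor that recruits pericytes, had ratios of −2.23 and −1.78 in control and deletion-labelled pools, and Myh11, smooth muscle myosin, had −3.18 and −2.36. Tagln, an actin-binding smooth muscle gene that overlaps the coding gene Pcsk7, had −1.75 and −3.50.

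All fibroblast genes that could be tested were lower in pulldown, 5 in control pools (median −3.34) and 6 in deletion-labelled pools (median −3.08). Igf2, an imprinted growth factor gene of the leptomeninges and vessel sheath (chr7:142650768-142666816 in GRCm38.p6), was the most abundant of them. Igf2 overlaps Mir483 and Igf2os, which leaves its counts uncertain. It stood at 132, 80.1, 62.1 and 37.2 CPM in control input and at 25.7, 16.7, 11 and 3.56 CPM in control pulldown (log2 ratio −2.47, SE 0.50, edgeR adjusted p = 0.000994). In deletion-labelled pools it stood at 134, 191, 291 and 95.3 CPM in input and at 29.3, 37.8, 86.1 and 21.3 CPM in pulldown (log2 ratio −2.04, SE 0.40, edgeR adjusted p = 0.000558). Pulldowns were under inputs without overlap, and the pools kept the same order in pulldown as in input within each genotype.

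Dcn, which encodes the proteoglycan decorin, stood at 8.20, 3.43, 3.67 and 3.88 CPM in control input and at 0.665, 0.684, 0.322 and 0.242 CPM in control pulldown (log2 ratio −3.34, SE 0.38, edgeR adjusted p = 1.08e-05). Its deletion-labelled levels were 7.10, 9.63, 15 and 5.15 CPM in input and at 1.05, 0.919, 2.59 and 0.672 CPM in pulldown (log2 ratio −2.82, SE 0.39, edgeR adjusted p = 2.97e-05). Neither genotype showed an overlap, and pool 1 was the high control input.

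Col1a1, a chain of type I collagen, had the lowest control ratio of the fibroblast genes fitted (−3.74, SE 0.43, edgeR adjusted p = 1.14e-05). It had under 10 counts in some control pulldown libraries, so it needed its input level to be tested. It stood at 1.65, 0.768, 0.889 and 1.34 CPM in control input and 0.0459, 0.150, 0.104 and 0.0439 CPM in control pulldown. Pools 5 to 8 held 2.05, 2.27, 4.38 and 1.43 CPM in input and 0.118, 0.173, 0.429 and 0.132 CPM in pulldown. Pulldowns again lay under inputs without overlap. Col1a2, the other chain of type I collagen, had ratios of −2.54 and −2.12, and Col3a1, type III collagen, had −3.67 and −3.33. Lum, the proteoglycan lumican, was too low for the control fit: it stood at 0.841, 0.112, 0.598 and 0.635 CPM in control input and 0.0229, 0, 0.0115 and 0.0110 CPM in control pulldown (exact permutation p = 0.0286, adjusted p = 0.0857). In deletion-labelled pools Lum stood at 0.860, 1.03, 1.59 and 0.403 CPM in input and 0.0355, 0.0649, 0.163 and 0.0132 CPM in pulldown.

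**Figure D3:**
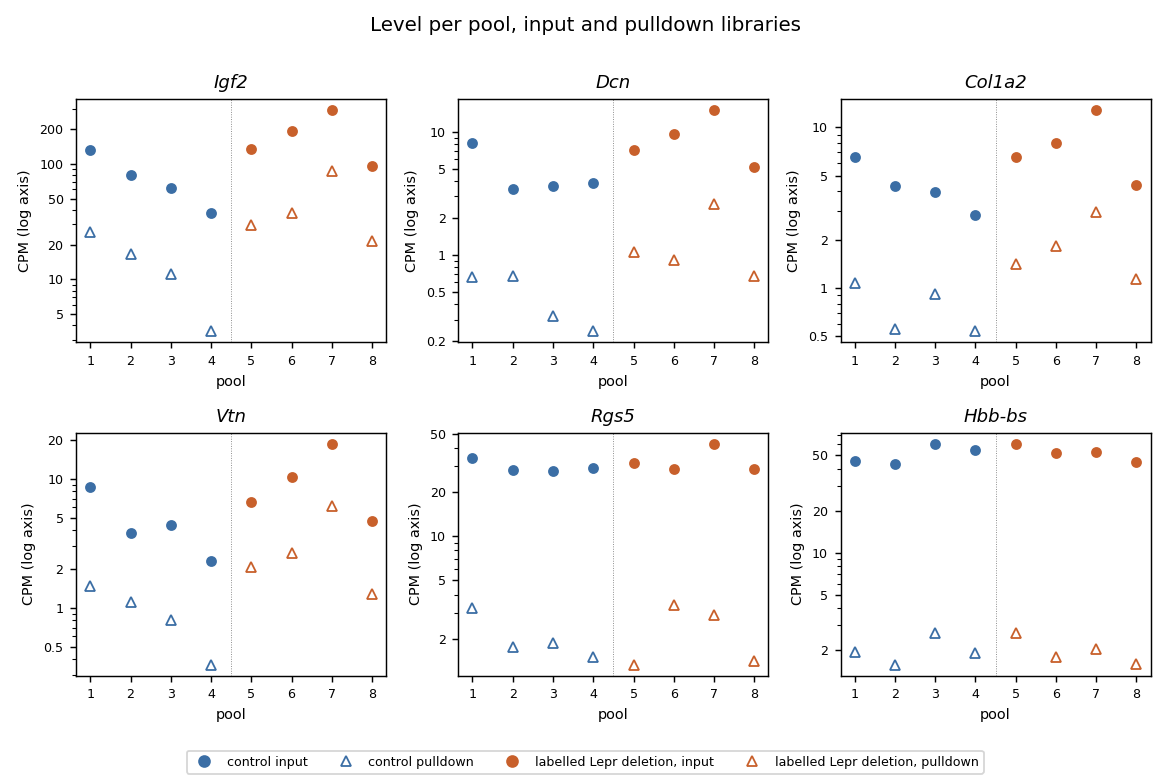
Level in TMM-scaled CPM (log axis) of Igf2, Dcn, Col1a2, Vtn, Rgs5 and Hbb-bs in each of the 8 pools, with input as filled circles, pulldown as open triangles, control in blue and deletion-labelled in orange. Igf2, Dcn, Col1a2 and Vtn are highest in pool 7 in both kinds of library, with Igf2 at 291 CPM in input and 86.1 CPM in pulldown, and Hbb-bs has no such peak.

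All 5 red blood cell genes were lower in pulldown in both genotypes, with medians of −4.68 and −4.72. Hbb-bs, an adult beta globin gene, stood at 45.4, 43.5, 60.6 and 54.2 CPM in control input and at 1.94, 1.57, 2.67 and 1.91 CPM in control pulldown (log2 ratio −4.68, SE 0.16, edgeR adjusted p = 4.18e-10). Levels in the deletion-labelled pools were 60.0, 51.7, 53.3 and 44.9 CPM in input and at 2.63, 1.79, 2.02 and 1.58 CPM in pulldown (log2 ratio −4.72, SE 0.14, edgeR adjusted p = 4.23e-12). This was a 25.5-fold lower level in control and a 26.3-fold lower level in deletion-labelled pulldown, with little spread between pools.

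Hbb-bt, the adjacent beta globin copy, stood at 29.3, 27.9, 41.7 and 33.7 CPM in control input and 1.23, 0.661, 1.09 and 0.891 CPM in control pulldown (log2 ratio −5.12, SE 0.18, edgeR adjusted p = 6.16e-10). In deletion-labelled pools it stood at 40.8, 32.5, 31.4 and 25.7 CPM in input and 1.15, 1.08, 1.23 and 1.1 CPM in pulldown (log2 ratio −4.84, SE 0.14, edgeR adjusted p = 5.25e-12). It had the lowest ratio of the 34 genes fitted in control pools. Summed, Hbb-bs and Hbb-bt had log2 ratios of −4.83 and −4.77 in control and deletion-labelled pools, and the alpha globins Hba-a1 and Hba-a2 summed had −4.54 in each.

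Alas2, which encodes the first enzyme of heme synthesis in red cell precursors, had the ratio closest to 0 of the 5. It stood at 1.56, 1.18, 2.03 and 1.74 CPM in control input and 0.0543, 0.139, 0.181 and 0.132 CPM in control pulldown (log2 ratio −3.66, SE 0.32, edgeR adjusted p = 1.34e-06). Its deletion-labelled levels were 2.44, 1.64, 1.16 and 0.717 CPM in input and 0.0790, 0.286, 0.112 and 0.0791 CPM in pulldown (log2 ratio −3.39, SE 0.46, edgeR adjusted p = 2.73e-05). Inputs were above pulldowns in every pool, and Alas2 overlaps the coding gene Apex2, which leaves its counts uncertain.

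Compared per length, on the TPM scale (counts divided by gene length and scaled to a fixed library sum) in control input, Hbb-bs was the most abundant of the 37 genes at 146 ± 21.5 TPM (SD, n = 4), followed by Hbb-bt at 79.8 ± 14.4, Hba-a2 at 56.1 ± 9.61 and Igf2 at 43.5 ± 22.3. The SD of Igf2 covers the mean of Hba-a2, but not the reverse. Hba-a1 came next at 21.9 ± 4.81 TPM, then Slc2a1 at 10.7 ± 1.19, Rgs5 at 9.37 ± 0.937 and Egfl7 at 7.91 ± 2.11, and the SDs of Slc2a1 and Rgs5 overlap, as do those of Rgs5 and Egfl7. On the TPM scale the summed endothelial genes were higher in pulldown than in input in 8 of 8 pools, whereas on the CPM scale they were lower in 8 of 8. The fits on TPM also raised the median ratio of all genes, by amounts given in the last section. Higher on TPM is therefore not measured against the median gene. Itm2a, Egfl7, Ramp2 and Esam, the same 4 genes as above, made up 97.6% of the endothelial TPM in control pulldown. The other 4 roles were lower in pulldown in 8 of 8 pools on both scales. Gene by gene, 269 of 296 ratios of pulldown over input within a pool were below 0 on log2 CPM and 242 of 296 on log2 TPM.

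Other endothelial, mural and fibroblast genes, and a separate list of vascular ligands, were lower in pulldown for the most part. Over all genes tested, 34.6% were lower and 30.1% higher in control pools. The shares were 32.8% and 28.8% in deletion-labelled pools. Of 17 other endothelial genes tested in control pools, 10 were lower, among them Cyyr1 (log2 ratio −3.73) and the transcription factor Erg (−2.33), and 3 were higher: Plvap, the fenestral diaphragm gene (1.13), Nos3, endothelial nitric oxide synthase (0.69), and Sema3g, a semaphorin (1.00). In deletion-labelled pools 13 of 17 were lower and 1 was higher, Plvap (1.08). Of 10 other mural genes tested, 8 and 9 were lower, with Notch3 at −3.60 and −3.62 and Cspg4 at −4.63 and −3.84. Of other fibroblast genes 8 of 12 and 10 of 14 were lower, with Fbln1 at −1.82 and −1.16. Of 9 vascular ligands, 6 and 7 were lower, among them Vegfa (−0.53 in each), Apln (−3.83 and −3.59) and Tgfb1 (−3.71 and −4.89), and Vegfb was higher in control pools (0.18). Of the other red cell and blood genes, the 2 tested in control pools had ratios of −0.06 and −0.04, and 4 of the 5 tested in deletion-labelled pools were lower.

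The pools were not alike in input, and 1 stood apart. Pool 7 had the highest input level of the 8 pools for 22 of the 37 genes, which were all 6 fibroblast genes, all 7 mural genes, 7 of 13 endothelial genes, 2 of 6 barrier transporters and 0 of 5 red blood cell genes. In pulldown, pool 7 was highest for all 6 fibroblast genes and for 5 of the 7 mural genes. The red blood cell genes were highest in input in pool 3 (2 genes) and pool 5 (3 genes). Summed fibroblast CPM, most of it Igf2, lay between 46.5 and 151 in control inputs and between 107 and 328 in deletion-labelled inputs. Summed red blood cell CPM lay between 93.2 and 137 and between 93.5 and 136, so its groups covered nearly the same range.

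Levels of a pool in input and pulldown were related for some of the 10 genes compared over the 8 pools (2 with the highest mean TPM per role, log2 CPM, exact permutation tests, adjusted over the 10). For Igf2 Pearson's r was 0.982 (p = 2.48e-05, adjusted p = 0.000248) and Spearman's rho was 1.0 (p = 4.96e-05, adjusted p = 0.000496), and r was 0.983 without pools 4 and 7. Vtn had r of 0.954 (p = 0.000868, adjusted p = 0.00434) and rho of 0.952 (p = 0.00114, adjusted p = 0.00570), and r of 0.824 without pools 4 and 7. Hbb-bs had r of 0.891 (p = 0.00392, adjusted p = 0.0131) and rho of 0.881 (p = 0.00724, adjusted p = 0.0241), and r of 0.787 without pools 2 and 8. For Igf2 and Vtn, then, pools with more input had more pulldown, also with the 2 farthest pools left out. Dcn had r of 0.836 (p = 0.00776, adjusted p = 0.0194) but rho of 0.595 (p = 0.132, adjusted p = 0.331), with r of 0.858 without pools 2 and 7. The adjusted p of r was 0.471 or more for Slc2a1, Abcg2, Rgs5, Hbb-bt, Egfl7 and Itm2a. The 8 pools include both genotypes, and input and pulldown of a pool share a lysate, a dissection and 4 animals. The permutations mixed pools of both genotypes. Igf2, Vtn and Dcn had positive genotype differences in input and in pulldown, so their p-values also take in that difference. Within control pools and within deletion-labelled pools alone, 4 pools are too few for a correlation: Igf2 had the order 1, 2, 3, 4 from high to low in both kinds of control library and 7, 6, 5, 8 in both kinds of deletion-labelled library.

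In input, none of the 35 tested genes passed between the genotypes, and 10 had an unadjusted p under 0.05, all higher in the deletion-labelled pools. Those 10 were Kdr, Abcb1a, Vtn, Anpep, Tagln, Col1a1, Col1a2, Col3a1, Dcn and Igf2. Between bulk input libraries, a different number of cells of a type and a different amount of RNA per cell cannot be told apart. Over all 17735 genes tested 0.231% passed and 14% had an unadjusted p under 0.05 in edgeR's test. DESeq2 called 1 of the 30 genes it gave an adjusted p, Col1a1 (2.7% of genes called), and so did the authors' deposited table, with an adjusted p of 0.0284.

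The fibroblast genes stood together in this comparison: 6 of 6 log2 differences were positive, from 0.82 to 1.40, with a median of 1.03, while the median of all genes was −0.0025. Igf2 differed by 1.19 (SE 0.35, edgeR adjusted p = 0.177), Col3a1 by 1.40 (SE 0.43, edgeR adjusted p = 0.196) and Col1a1 by 1.12 (SE 0.33, edgeR adjusted p = 0.179). Control and deletion-labelled inputs overlapped for each of these 3 genes. Without pool 7 the differences were 0.85 for Igf2, 0.89 for Col3a1 and 0.72 for Col1a1, and without pool 1 Igf2 and Dcn passed (1.57, edgeR adjusted p = 0.0310, and 1.33, edgeR adjusted p = 0.0314). Without a filter on low counts 5 genes passed, Col1a1, Col1a2, Col3a1, Dcn and Igf2.

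The mural genes were also positive in 7 of 7 (median 0.64), led by Anpep at 1.11 (SE 0.41) and Vtn at 1.08 (SE 0.40), with edgeR adjusted p of 0.261 and 0.265. The endothelial median was 0.18 and the barrier median 0.05, with Abcb1a at 1.05 (SE 0.33, edgeR adjusted p = 0.210). The red blood cell median was −0.03, with log2 differences from −0.12 to 0.04. Of 14 other fibroblast genes, 0 passed and 11 had an unadjusted p under 0.05, with a median difference of 1.21.

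Values that moved beside these differences were of other tissue and of library makeup. Summed CPM of 5 choroid plexus genes lay between 13.4 and 17.7 in control inputs and between 14.5 and 22.5 in deletion-labelled inputs. Most of this sum was Kl, at 7.65 to 9.23 CPM in control inputs and 8.74 to 13.4 CPM in deletion-labelled inputs. Kcnj13, another of the 5, was at 4.89 CPM in the pool 7 input, against 0.499 to 1.72 CPM in control inputs. Ttr was at 1.79 CPM in the pool 7 input, its lowest input, and Folr1 was at 0.238 CPM or less in every library. Mitochondrially encoded RNA made up 31.2% to 32.5% of counts in control inputs and 27.6% to 30.0% in deletion-labelled inputs. Their part in the differences was not tested.

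**Figure D4:**
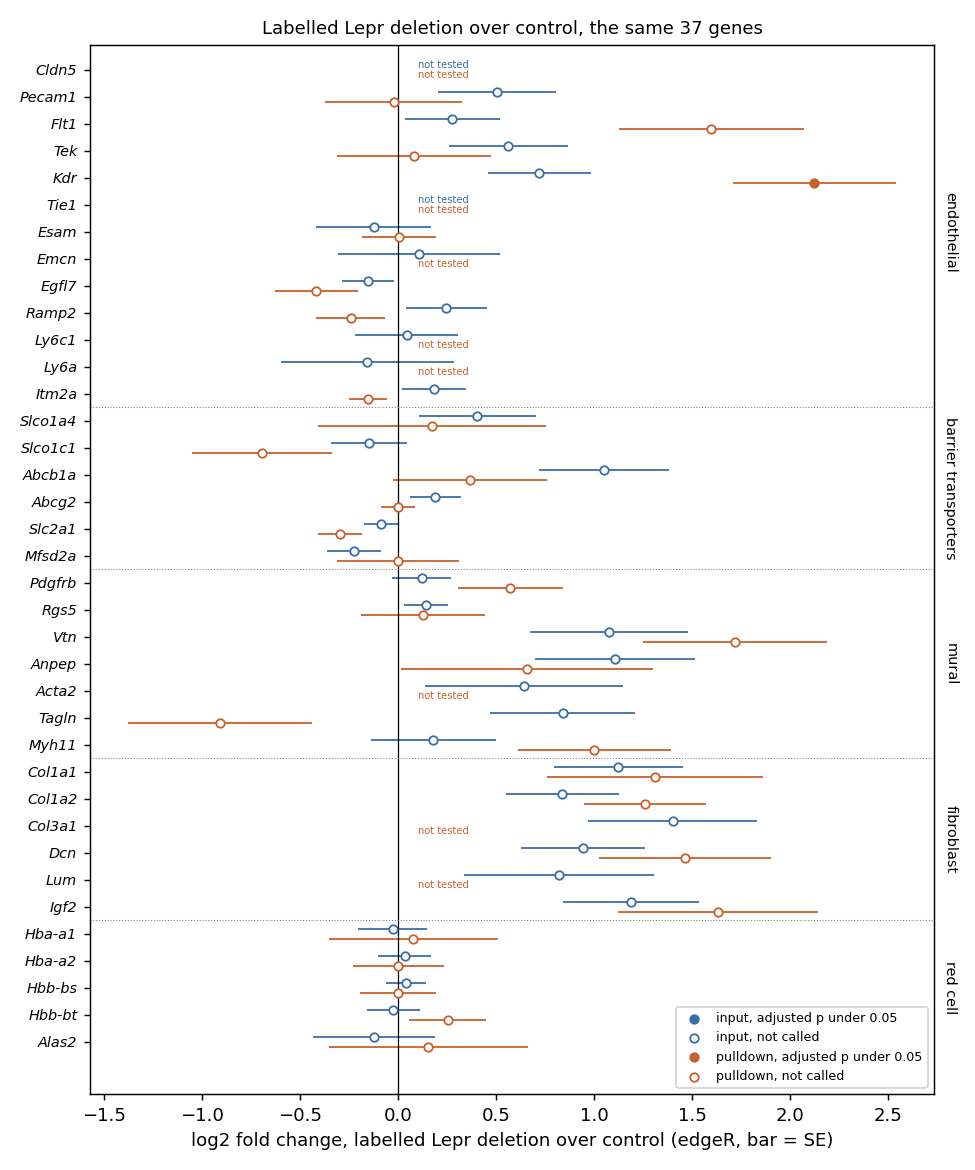
Log2 difference of deletion-labelled over control libraries (horizontal axis, edgeR fit, with bars of 1 standard error) for each tested gene by role, in input and in pulldown. The fibroblast genes lie between 0.82 and 1.63 in both kinds of library, red blood cell genes lie near 0, and Kdr in pulldown, at 2.12, is the 1 gene that passed.

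In pulldown, 1 of 29 tested genes passed between the genotypes and 9 had an unadjusted p under 0.05, beside 0.641% and 19.8% of 16859 genes tested. Kdr (chr5:75932827-75979072 in GRCm38.p6) was the gene that passed: its 4 deletion-labelled pulldowns, at 1.01, 1.56, 3.22 and 1.60 CPM, were all above the 4 control pulldowns, at 0.815, 0.288, 0.380 and 0.231 CPM. The log2 difference was 2.12 (SE 0.42, edgeR adjusted p = 0.0494), a 4.36-fold higher level. Its adjusted p ranged from 2.31e-05 to 0.217 over 18 alternatives, of which 6 kept the call. Without pool 7 the difference was 1.70 (edgeR adjusted p = 0.197), and leaving out pool 2, 3, 4, 6 or 8 also ended the call. In input the Kdr difference was 0.72 (SE 0.27, edgeR adjusted p = 0.257). Kdr overlaps Gm32727, so with no strand setting given its counts are uncertain.

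The other 8 genes with an unadjusted p under 0.05 were Flt1, Vtn, Myh11, Col1a1, Col1a2, Dcn and Igf2, which were higher, and Slc2a1, which had a difference of −0.30 (SE 0.11, edgeR adjusted p = 0.175). Flt1 differed by 1.60 (SE 0.47, edgeR adjusted p = 0.109), Vtn by 1.72 (SE 0.47, edgeR adjusted p = 0.0964) and Igf2 by 1.63 (SE 0.51, edgeR adjusted p = 0.125). Each of these 3 genes overlapped between the groups. Col1a2 stood at 1.08, 0.556, 0.920 and 0.538 CPM in control pulldown and at 1.41, 1.82, 2.96 and 1.13 CPM in deletion-labelled pulldown, without overlap (log2 difference 1.26, SE 0.31, edgeR adjusted p = 0.0823). The 4 fibroblast genes tested had a median difference of 1.39, against −0.01 for all genes. Without pool 7, Igf2 differed by 1.06, Col1a2 by 0.92 and Dcn by 0.89. DESeq2 called 4 of the 18 genes it gave an adjusted p, Kdr, Flt1, Col1a2 and Dcn, beside 7.52% of all genes it tested, and the authors' deposited table held adjusted p of 2.69e-05, 0.0172, 0.00366 and 0.0154 for them.

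Of the 8 genes too low for the pulldown fit, Col3a1 was higher in all 4 deletion-labelled pulldowns than in any control pulldown, with means of 0.207 and 0.0620 CPM (exact permutation p = 0.0286, adjusted p = 0.0857). Lum had means of 0.0690 and 0.0114 CPM (exact permutation p = 0.0571, adjusted p = 0.143). For Cldn5, Tie1, Emcn, Ly6c1, Ly6a and Acta2 the exact permutation p was 0.143 or more, and their pulldown levels were mostly within a few counts of 0. Of 12 other fibroblast genes tested, 0 passed in edgeR's test and 10 had an unadjusted p under 0.05, with a median of 1.33. Vegfa, the ligand of Kdr and Flt1, was −0.26 in pulldown and in input (edgeR adjusted p = 0.103 in each). Summed choroid plexus CPM lay between 10.3 and 11.9 in control and between 10.9 and 13.6 in deletion-labelled pulldowns. Most of it was Kl, at 8.64 to 10.1 CPM in control and 9.29 to 10.6 CPM in deletion-labelled pulldowns. Kcnj13 was at 0.130 to 0.765 CPM in control pulldowns. It was at 3.24 CPM in the pool 7 pulldown and at 0.676 to 1.16 CPM in the other deletion-labelled pulldowns. Ttr and Otx2 overlapped between the groups. Summed astrocyte CPM lay between 255 and 280 in control and between 264 and 291 in deletion-labelled pulldowns. The part of either sum in these differences was not tested.

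The difference of enrichment between the genotypes, fitted over all 16 libraries, passed for 0 of 35 tested genes in edgeR's test, and 3 had an unadjusted p under 0.05, beside 0.0108% and 8.96% of 18530 genes. Those 3 were Kdr at 1.39 (SE 0.54, edgeR adjusted p = 0.480), Flt1 at 1.31 (SE 0.55, edgeR adjusted p = 0.511) and Tagln at −1.76 (SE 0.62, edgeR adjusted p = 0.433). For Kdr and Flt1, the ratio of pulldown over input was closer to 0 in deletion-labelled pools, and for Tagln it was lower there. DESeq2 gave an adjusted p for 2 of the genes, not for Kdr or Flt1, and called neither (0.255% of all genes with one). Depletion of Rgs5 (difference −0.02, SE 0.35) and Hbb-bs (−0.05, SE 0.22) differed by less than 1 SE between the genotypes, and the fibroblast genes had a median difference of 0.42 with 0 genes at an unadjusted p under 0.05.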

How the data were processed

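Hypothalamic bacTRAP input and pulldown RNA of 8 pools of 4 mice was sequenced (16 libraries, 4 per group). Salmon 1.10.1, DESeq2 1.38.3 and the genome build GRCm38 are named in the submitters' processing notes. Annotation release and strand setting are not given in the sources used here. The 10 of 37 genes that overlap another gene (3 a coding gene) are therefore uncertain. Abcb1a, Tagln and Alas2 overlap a coding gene, and the others are Kdr, Flt1, Emcn, Egfl7, Ly6a, Slc2a1 and Igf2. For each gene the authors deposited estimated counts, length-scaled estimated counts and TPM, and a table of log2 fold changes with adjusted p-values per comparison.

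Estimated counts were rounded and tested with edgeR 4.0.16 in R 4.3.3 (quasi-likelihood, TMM scaling, filterByExpr with a minimum count of 10 and total of 15), two-sided, over all genes tested and adjusted by Benjamini-Hochberg at 0.05. A standard error is the log2 change divided by the square root of F. Each comparison of 2 groups used their 8 libraries. DESeq2 1.42.0, limma 3.58.1 on log2(TPM + 1) and log2(TPM + 0.1), other scalings and filters, and leaving out each pool were the alternatives. Procedures were tested on simulated data. Input and pulldown of a pool share a lysate, so a fit with the pool as a block was also made: deviations of the same pool correlated at 0.082 to 0.511, over 0.1 in 7 of 8 pools, and were highest within the own pool in 8 of 8. No 2 libraries of a group agreed within sampling noise (chi-square per degree of freedom 8.16 to 49.9 over 24 pairs). Library totals of 64435952 to 78623636 counts put the floor of 3 counts at 0.0321 to 0.0562 CPM, which covers counting error only. Exact permutation tests served for genes too low for the fit. Promoter windows came from RefSeq (GRCm38.p6), which held 27 of the 37 genes by symbol.

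The genes and gene lists were chosen with earlier results of these data known. Per-library values are printed for the 2 genes per role with the highest mean TPM, those with the highest and lowest fitted control ratio per role, those that passed between genotypes and those not called lower; Flt1 and Col1a2 were added after their values were seen. At most 4 genes per other list were named, by the smallest p, and Nos3, Sema3g and Vegfb were added after their values were seen. Among the other red cell genes listed, Ahsp and Epb42 were not analysed here.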

Additional observations from a re-analysis of the deposited data

Results flagged for a closer look

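In groups of 4 libraries, 168 sets of values were checked for a single library far from the other 3, and 12 were found, of which 6 lay in pool 7; chance alone gives about 1 in 20. In the pool 7 input Flt1 was at 6.35 CPM, Pdgfrb at 5.65 CPM and Tagln at 1.74 CPM, and the summed endothelial genes were at 31.8 CPM, each above the other 3 deletion-labelled inputs. In the pool 7 pulldown Anpep was at 1.04 CPM, above the other deletion-labelled pulldowns, and Tie1 was at 0.0116 CPM, which is 1 count against 0 in the others. In the pool 1 input Dcn was at 8.20 CPM, Tie1 at 0.228 CPM and the summed mural genes at 52.5 CPM, each above the other control inputs. The thyroxine carrier gene Slco1c1 was at 0.449 CPM in the pool 2 pulldown, above the other control pulldowns. Among red blood cell genes, Hba-a1 was at 11.2 CPM in the pool 5 input and Alas2 at 0.286 CPM in the pool 6 pulldown, each above the rest of its group.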

How the results depend on the processing

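Of 724 alternative values of single genes, 655 kept their side of the threshold, 36 passed newly, 22 no longer passed and 11 turned sign with a call in a setting. Of the 655, 17 turned sign without passing in either setting, among them Kdr in deletion-labelled pools (−0.81, up to 0.05) and Egfl7 there (0.04, down to −0.18). With a call, the sign turned for Abcg2 with library totals in control pools (0.18), on log2(TPM + 1) (0.29 control, 0.26 deletion-labelled) and on log2(TPM + 0.1) (0.35 and 0.32), for Slc2a1 (0.0016 and 0.0015) and Esam (0.44 and 0.82) on the 2 TPM scales in control pools, and for Ramp2 on them in deletion-labelled pools (0.58 and 0.69). Calls of the 37 genes between input and pulldown ranged from 30 to 32 in each genotype when a pool was left out, and fell to 17 and 19 with a mean of at least 1 CPM, which tests fewer genes. The replicate block gave 31 and 32, with 12178 and 11054 genes called, and beside Anpep and Kdr it changed no other call of the 37. The median ratio of all genes rose by 0.53 and 0.44 with library totals, 0.75 and 0.70 on log2(TPM + 1), and 0.94 and 0.86 on log2(TPM + 0.1). The share of called genes that were higher went from 46.5% to 76.2%, 84.3% and 84.0% in control pools and from 46.8% to 74.4%, 84.1% and 83.8% in deletion-labelled pools on these scales.

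Between genotypes in pulldown, 1 of the 37 genes passed, against 0 with RLE, library totals, at least 1 CPM, length-scaled counts and either TPM scale, 3 with no filter and 4 with DESeq2, and 0 to 5 when a pool was left out. All genes called there were 108, against 266 with no filter, 1071 with DESeq2, 16 with length-scaled counts, 18 and 13 on TPM, 508 with all 16 libraries in 1 fit, and 19 to 1262 with a pool left out. In input, where 0 of the 37 passed, 5 did with no filter, 1 with DESeq2 and 0 to 2 with a pool left out. All genes called there were 41, against 108 with library totals, 261 with no filter, 386 with DESeq2, 11 with length-scaled counts, 14 and 9 on TPM, and 19 to 402 with a pool left out. The difference of enrichment had 2 genes, against 4 with RLE and library totals, 6 with no filter, 17 with DESeq2, 0 with length-scaled counts, 1 and 0 on TPM, 4 with the replicate block, and 1 to 3 with a pool left out. The share of called genes that were higher between genotypes was 61.1% in pulldown, against 39.5% with library totals and 72.2% and 69.2% on TPM, and 58.5% in input, against 87.0% with library totals, 90.9% with length-scaled counts and 100% on TPM. The cause of these shifts was not tested. Genes near 3 counts, such as Cldn5, Tie1 and Lum in pulldown, are limited by depth.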
